A study of Mus musculus with 96 samples.

Results

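Limb buds of wild-type (WT) mouse embryos were set against 6 other tissues of the same stage to describe the genes that marked them. Of 28712 genes in the deposited table, 53 were limb-enriched. A gene was counted as limb-enriched if its lowest value among the 4 WT limb columns, forelimb and hindlimb of males and of females, was at least 2-fold above its highest value in the 12 WT columns of pre-somitic mesoderm (PSM), heart, lung, liver, forebrain and midbrain. Values were compared as log2(FPKM + 1), where FPKM is a count of sequenced fragments scaled by transcript length and by library size. The distance between the lowest limb value and the highest other value on this scale is called the margin, and a margin of 1 is the 2-fold limit. These WT columns chose the 53 genes, so the WT difference between limb and other tissues is given as a description, with no test.

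All embryos were taken at E11.5. The line that carried the *Firre* deletion described below had been backcrossed to C57BL/6J for 3 generations. WT embryos carried an intact *Firre* gene, which makes a long noncoding RNA from the X chromosome. ∆*Firre* embryos, labelled KO, carried a germline deletion of the *Firre* gene body and promoter made with a CMV-Cre line, and served here as columns that the choice of genes had not used. Matings set a *Firre* heterozygous female with either a WT or a ∆*Firre* male. Of 96 libraries in 32 groups of tissue, sex and genotype, 12 were WT limb buds. Each column is the authors' value over 3 libraries, and values for single libraries were not analysed here, so the spread between replicates is unknown and no difference here has a p-value. The tissues were whole dissected pieces with many cell types, in which fewer cells of a type and less RNA per cell cannot be told apart.

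The early limb bud is a core of mesenchyme inside a jacket of ectoderm. The apical ectodermal ridge at its rim keeps it growing through fibroblast growth factors, a posterior group of cells makes Sonic hedgehog, and Hox genes of the A and D clusters pattern its length. Muscle precursors enter the bud from the somites, whereas tendon and cartilage form from the mesenchyme itself. The forelimb bud appears before the hindlimb bud in the mouse.

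By roles assigned by hand to the 53 limb-enriched genes alone, with no share of all genes counted, 17 were transcription factors. Homeodomain proteins accounted for 10 of these, namely *Prrx1*, *Prrx2*, *Meox2*, *Hoxa10*, *Hoxa11*, *Lmx1b*, *Lhx9*, *Lbx1*, *Shox2* and *Gsc*. The other 7 were *Osr2*, *Tbx15*, *Mecom*, *Scx*, *Twist1*, *Fli1* and *Myog*. Secreted signals and antagonists gave 7 genes and receptors gave 4. The set held 49 protein-coding genes and 4 long noncoding RNAs by RefSeq. All 53 had RefSeq positions on GRCm38.p6 (mm10), and RefSeq promoter windows, from 250 bases before to 50 bases after a start, were at hand for 40 of them.

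The promoter windows below are shown because they belong to the most abundant homeodomain gene of the set and to *Asb4*, the gene with the highest limb value. Capitals mark TAATTA, the core bound by many homeodomain proteins, read on both strands. The *Prrx1* window lay at chr1:163313601-163313900 on the minus strand, and the *Asb4* window, the first of its 2, at chr6:5383136-5383435 on the plus strand. The second *Asb4* window (chr6:5390160-5390459) holds no TAATTA and is not shown.
Prrx1: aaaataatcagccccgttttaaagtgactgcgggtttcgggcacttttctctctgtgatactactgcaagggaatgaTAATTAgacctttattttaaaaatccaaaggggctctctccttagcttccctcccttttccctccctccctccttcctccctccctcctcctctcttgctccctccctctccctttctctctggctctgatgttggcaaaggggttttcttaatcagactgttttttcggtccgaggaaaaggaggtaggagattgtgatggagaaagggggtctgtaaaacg
Asb4: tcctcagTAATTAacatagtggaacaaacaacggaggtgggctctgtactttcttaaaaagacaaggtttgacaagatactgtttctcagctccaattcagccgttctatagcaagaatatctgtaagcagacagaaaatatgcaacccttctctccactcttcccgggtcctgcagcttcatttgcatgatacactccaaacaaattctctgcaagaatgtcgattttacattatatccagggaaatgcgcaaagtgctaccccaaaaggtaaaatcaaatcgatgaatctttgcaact
TAATTA occurred in 6.12% of 49 windows of limb-enriched genes and in 5.29% of all 32851 windows. TTTATG, a word bound by posterior Hox proteins, occurred in 10.2% and 11.9% on either strand. For AGGTGT, part of the T-box recognition site, the shares were 16.3% and 13.7%, for the E-box CATCTG 14.3% and 17.2%, and for TAATCC, bound by goosecoid-type homeodomains, 2.04% and 7.06%. A match describes letters in a window and is not a binding site. The windows of limb-enriched genes had a median GC content of 58.3%, beside 52.7% for all windows.

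Of the 53 genes, 7 (13.2%) had another limb-enriched gene within 500 kb. Of the other 24272 placed genes, 3.01% had a limb-enriched gene within that distance. *Lmx1b* (chr2:33560965-33641208), *C130021I20Rik* (chr2:33641193-33645663) and *9430024E24Rik* (chr2:33714606-33718950) lay in a row, and the annotations of the first and second overlapped by 16 bases. *Hoxa10* (chr6:52231197-52240854) and *Hoxa11* (chr6:52242105-52245810) were neighbours, as were the connexin genes *Gja3* (chr14:57034460-57058030) and *Gjb2* (chr14:57098602-57104702). The windows of *Lmx1b* (chr2:33641049-33641348, minus strand) and *C130021I20Rik* (chr2:33640943-33641242, plus strand) are shown because the starts of both genes, which point away from each other, share these bases. Capitals mark the 194 bases that both windows contain, each on its own strand.
Lmx1b: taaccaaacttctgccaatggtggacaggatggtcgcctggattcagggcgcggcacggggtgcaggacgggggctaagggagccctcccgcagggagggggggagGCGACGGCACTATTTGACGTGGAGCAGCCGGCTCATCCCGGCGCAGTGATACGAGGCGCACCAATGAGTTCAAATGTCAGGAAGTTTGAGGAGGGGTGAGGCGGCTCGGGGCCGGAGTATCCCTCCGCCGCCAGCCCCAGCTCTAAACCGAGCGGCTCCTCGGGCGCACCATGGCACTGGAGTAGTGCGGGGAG
C130021I20Rik: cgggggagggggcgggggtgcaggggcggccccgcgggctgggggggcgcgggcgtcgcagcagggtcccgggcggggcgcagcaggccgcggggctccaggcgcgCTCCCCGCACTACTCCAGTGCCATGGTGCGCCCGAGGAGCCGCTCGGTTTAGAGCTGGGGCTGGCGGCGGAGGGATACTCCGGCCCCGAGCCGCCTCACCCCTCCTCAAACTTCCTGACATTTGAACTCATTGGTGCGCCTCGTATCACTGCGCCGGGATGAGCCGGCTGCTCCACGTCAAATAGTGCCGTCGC

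*Dnm3os*, a noncoding RNA that is the host transcript of microRNA genes, spanned the hairpins of *Mir199a-2* and *Mir214* on its own strand (chr1:162217623-162225550). The mature sequences are shown because the poly(A)+ libraries measured the host and not the microRNAs. Capitals mark the seed, bases 2 to 8, which differed in all 4.
mmu-miR-199a-5p: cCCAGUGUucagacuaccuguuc
mmu-miR-199a-3p: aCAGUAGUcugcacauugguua
mmu-miR-214-5p: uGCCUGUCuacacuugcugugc
mmu-miR-214-3p: aCAGCAGGcacagacaggcagu

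The labels were first checked against the data. *Firre* stood at 48.8 and 50.6 FPKM in WT male and female forelimb and at 33.4 and 39.3 FPKM in WT male and female hindlimb, and between 0.0105 and 0.0703 FPKM in the ∆*Firre* limb columns. *Xist* was at 217 and 222 FPKM in the WT female limb columns and at 0.466 FPKM or less in the male ones. Between 12425 and 13318 genes were above 1 FPKM in a WT column. The forelimb columns also held high values at many predicted genes. By the same 2-fold rule, 72 genes had forelimb values above every other WT tissue, hindlimb included, and 55 of them (76.4%) bore names of predicted or copied genes (Gm followed by digits, -ps or -rs), against 21.3% of the whole table. Hindlimb values stood above every other tissue for 2 genes. *Gm8186*, listed as a pseudogene in an older GENCODE annotation, was at 61.8 and 78.9 FPKM in WT forelimb, 84.8 and 75.1 FPKM in ∆*Firre* forelimb, 0.367 and 1.32 FPKM in WT hindlimb, and 0.269 to 0.808 FPKM as tissue means elsewhere. The same annotation listed *Gm5611* and *Gm10250*, also high in forelimb, as protein-coding. Reads of copied genes can be shared with their parent genes, so the values of genes with such names are uncertain. The limb-enriched rule asks for hindlimb too, and the 3 of the 53 genes that were also 2-fold above hindlimb in WT forelimb were *Kera*, *Myog* and *Krt17*.

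**Figure D1:**
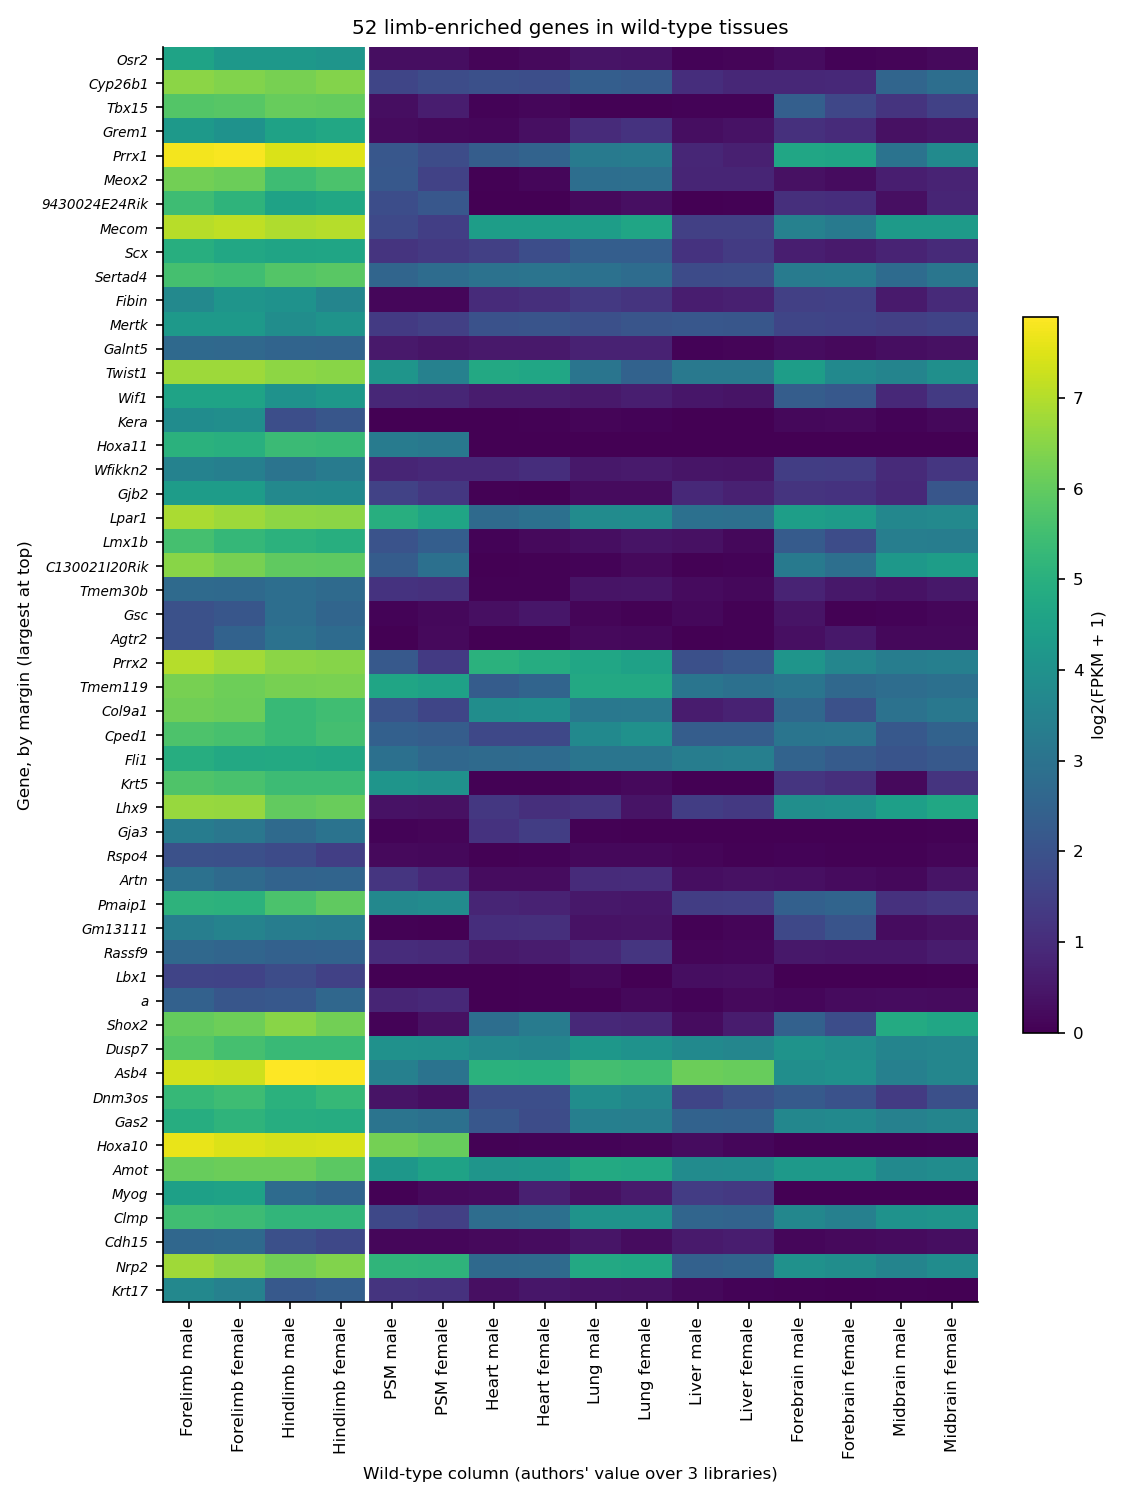
The limb-enriched genes (52 rows, by margin) in the 16 WT columns, coloured by log2(FPKM + 1), with the 4 limb columns left of the white line. *Hoxa10* and *Krt5* have their next highest values in PSM, *Prrx1* and *Tbx15* in forebrain, and *Kera* and *Myog* are lower in hindlimb than in forelimb.

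Limb-enriched genes were few in these data, at 0.185% of all genes, and 909 genes (3.17%) had every WT limb column above every other WT column by any amount. The same rule gave 127 genes for PSM, 101 for lung, 539 for heart and 694 for liver, each from its own pair of columns. For forebrain and midbrain as 1 set, which is 4 columns as for the limb buds, it gave 413 genes. The count depended on which tissues stood beside the limb buds. Without PSM 112 genes passed, without lung 82, and with any of the other 4 tissues left out between 57 and 64. With forelimb alone against the 12 other columns 170 genes passed, and with hindlimb alone 57. The 170 include the 72 genes described above whose forelimb values stood above every other tissue, hindlimb included. Of those 72, 55 bore names of predicted or copied genes, whose values are uncertain.

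*Prrx1*, the mesenchymal homeodomain factor that marks limb mesenchyme (ENSMUSG00000026586.16, chr1:163245119-163315145), was the most abundant transcription factor of the set in limb buds. It was at 218 and 227 FPKM in male and female forelimb and at 175 and 182 FPKM in male and female hindlimb. Its highest other value was 24.3 FPKM, in male forebrain, and liver had a mean of 0.709 FPKM. The limb columns and the others did not overlap, and the lowest limb value was 6.97-fold above the highest other value on the FPKM + 1 scale. Its paralog *Prrx2* was at 130, 110, 90.7 and 87.8 FPKM in the same order of columns, with heart next at 32.2 FPKM and a margin of 1.42.

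Of the 4 genes taken as limb markers, only *Prrx1* was limb-enriched by the rule. *Msx1*, a homeodomain factor of undifferentiated mesenchyme, had means of 92.8 FPKM in forelimb and 85.0 FPKM in hindlimb but 38.0 FPKM in forebrain, which left a margin of 0.89. *Hoxd12* was at 88.9 and 58.4 FPKM in forelimb and hindlimb and at 45.1 FPKM in PSM, with a margin of 0.18. *Alx4*, an aristaless-like homeodomain factor, was at 7.84 and 11.9 FPKM in the limb buds, below the 13.8 FPKM of forebrain. *Prrx1*, *Msx1* and *Hoxd12* were thus highest in all 4 limb columns, and *Alx4* was not.

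*Osr2*, an odd-skipped zinc finger factor (ENSMUSG00000022330.4, chr15:35296098-35303305), had the largest margin, 3.72. It was at 22.8 and 17.5 FPKM in male and female forelimb and at 17.5 and 16.4 FPKM in hindlimb, whereas no other WT column exceeded 0.323 FPKM. *Tbx15*, a T-box factor of limb and trunk mesenchyme (ENSMUSG00000027868.11, chr3:99240348-99354260), was at 53.7 and 57.2 FPKM in forelimb and 66.2 and 64.4 FPKM in hindlimb, with male forebrain next at 4.19 FPKM. Both genes were thus near the floor in heart, lung and liver, where *Tbx15* had means of 0.036 to 0.0723 FPKM. *Meox2*, a homeodomain factor needed for limb muscle, stood at 72.6 and 68.3 FPKM in forelimb and 42.6 and 50.1 FPKM in hindlimb, and lung was next at 6.42 FPKM. *Mecom*, a zinc finger factor also known as Evi1, was at 124 to 139 FPKM in the limb columns and at 24.2 FPKM in female lung. Of these 4 genes, *Mecom* had the highest level outside the limb buds, with heart, lung and midbrain means of 20.1, 22.2 and 18.7 FPKM.

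*Scx*, the basic helix-loop-helix factor of tendon progenitors, was at 23.7 to 29.6 FPKM in the limb columns and at most 4.19 FPKM elsewhere, in male lung. *Twist1*, of the same family and known from mesenchyme, was at 106 FPKM in both forelimb columns, 92.9 and 88.9 FPKM in hindlimb and 26.1 FPKM in male heart. *Fli1*, an ETS factor best known from endothelium and blood, was at 25.5 to 29.3 FPKM in limb buds and 9.58 FPKM in female liver. The blood vessel list did not follow it. None of its 12 genes was highest in every limb column, and its summed level was 127 to 144 FPKM in limb columns and 399 to 400 FPKM in heart.

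Factors that pattern the axes of the bud followed different second tissues. *Lmx1b*, which specifies dorsal limb, was at 46.2 and 37.0 FPKM in forelimb and 33.0 and 30.0 FPKM in hindlimb, with 9.49 FPKM in male midbrain, where it is also known from dopaminergic neurons. *C130021I20Rik*, its head-to-head neighbour, was at 89.95, 76.4, 62.1 and 60.9 FPKM in the same columns and at 20.2 FPKM in female midbrain. Both had PSM and forebrain means between 3.20 and 7.43 FPKM, and their means in heart, lung and liver were below 0.3 FPKM. The library kit does not mark strand, so reads in their overlap cannot be told apart. *9430024E24Rik*, farther along the same stretch, was at 42.7 and 34.3 FPKM in forelimb and 22.5 and 24.9 FPKM in hindlimb, but PSM came next, at 3.46 FPKM. Elsewhere in the set, the RefSeq spans of *Scx*, *Shox2*, *Gas2* and *Dnm3os* overlap *Bop1*, *Rsrc1*, *Fancf* and *Dnm3*, among other such pairs. Without strand, reads in those overlaps cannot be told apart either.

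*Lhx9*, a LIM homeodomain factor of distal mesenchyme, was at 101 and 98.7 FPKM in forelimb, 63.0 and 67.1 FPKM in hindlimb and 24.9 FPKM in female midbrain. *Shox2*, which is needed for the proximal limb skeleton, was at 64.1 and 70.1 FPKM in forelimb, 88.8 and 72.7 FPKM in hindlimb and 27.7 FPKM in male midbrain. *Gsc*, the goosecoid factor, was low throughout, at 2.86 and 3.28 FPKM in forelimb, 6.24 and 4.92 FPKM in hindlimb and no more than 0.385 FPKM elsewhere. Across a list of 34 limb mesenchyme transcription factors, 7 were limb-enriched and 13 had every limb column highest. The median margin of this list was -0.10, beside -0.28 for all genes and -0.57 for the 12681 genes whose mean over the WT limb columns exceeded 1 FPKM. *Lhx2* (forebrain mean 131 FPKM), *Tbx2* (lung 48.7 FPKM) and *Sall4* (PSM 53.9 FPKM) were examples of the list that stood higher outside the limb buds.

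For the Hox genes of the set PSM was the next tissue. *Hoxa10* was at 199 and 177 FPKM in forelimb, 165 and 171 FPKM in hindlimb and 74.9 FPKM in male PSM, and *Hoxa11*, which patterns the forearm and lower leg, was at 31.7 and 30.4 FPKM in forelimb, 40.7 and 39.3 FPKM in hindlimb and 8.77 FPKM in male PSM. Outside limb buds and PSM both were under 0.2 FPKM as tissue means. *Hoxa11* overlaps the antisense transcript *Hoxa11os*, which was at means of 182 and 162 FPKM in forelimb and hindlimb and 109 FPKM in PSM. Without strand, reads of this pair cannot be told apart, and the *Hoxa11* values are uncertain. Of 11 HoxA genes, 4 (*Hoxa9*, *Hoxa10*, *Hoxa11* and *Hoxa13*) had every limb column above both PSM columns, as did 3 of 9 HoxD genes (*Hoxd9*, *Hoxd12* and *Hoxd13*). For HoxB (10 genes) and HoxC (9 genes) the count was 0. *Hoxd13*, the gene of the digits, had the highest forelimb mean of any Hox gene, 220 FPKM, with 149 FPKM in hindlimb and 67.7 FPKM in PSM, and its margin of 0.92 fell short of the rule. Summed over the 10 HoxB genes, limb columns held 3.63 to 14.1 FPKM and PSM 245 to 288 FPKM.

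**Figure D2:**
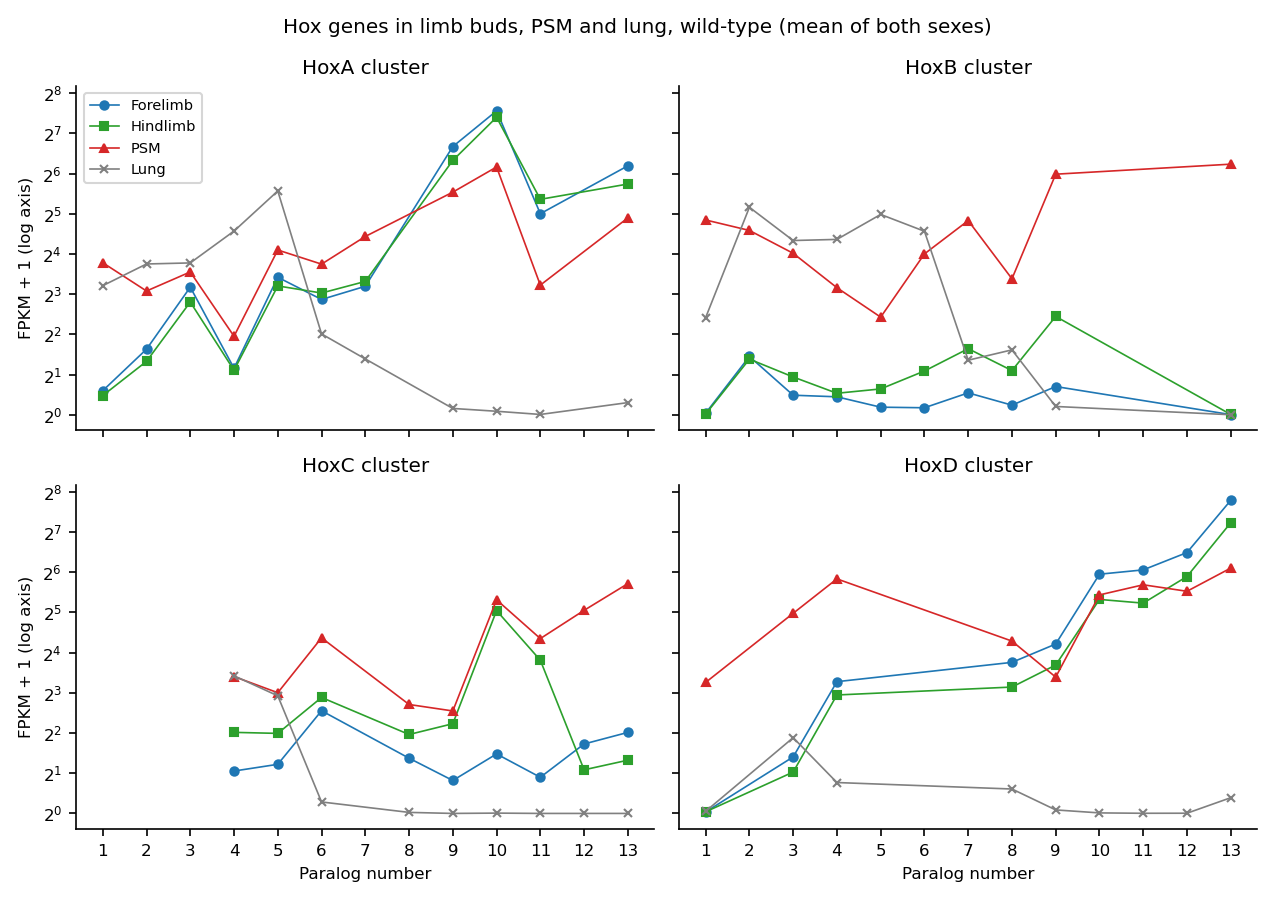
Mean WT level (FPKM + 1, log axis) of each Hox gene by paralog number in forelimb, hindlimb, PSM and lung. HoxA genes from paralog 9 on and *Hoxd9*, *Hoxd12* and *Hoxd13* are higher in both limb buds than in PSM, HoxB genes are lower in both limb buds, and *Hoxc10* and *Hoxc11* are low in forelimb only among the limb buds and PSM.

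Signals and their antagonists formed the next group. *Grem1*, a secreted antagonist of bone morphogenetic proteins (BMPs) that links hedgehog and ridge signals (ENSMUSG00000074934.3, chr2:113748675-113758648), was at 17.7 and 15.3 FPKM in forelimb, 22.3 and 25.6 FPKM in hindlimb and 1.24 FPKM in female lung, a margin of 2.86. It was the 1 limb-enriched gene in a list of 19 BMP pathway genes, 6 of which had every limb column highest. *Wif1*, a secreted WNT inhibitor, was at 22.8 and 22.7 FPKM in forelimb, 15.5 and 17.4 FPKM in hindlimb and 3.98 FPKM in male forebrain. *Rspo4*, an R-spondin known from nail formation, was low, at 1.76 to 2.85 FPKM, but did not exceed 0.137 FPKM in any other column. *Rspo4* was the 1 limb-enriched gene of 25 in the WNT list, and its relatives *Rspo1* and *Rspo3* were higher elsewhere, with forebrain and PSM means of 35.2 and 46.2 FPKM.

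*Fibin*, a secreted protein first described in fin buds, was at 11.2 to 16.5 FPKM in limb columns and 1.88 FPKM in female forebrain. *Wfikkn2*, a secreted inhibitor of myostatin, was at 7.25 to 10.3 FPKM, with 1.70 FPKM in male forebrain. *Artn*, a ligand of the GDNF family, was at 4.67 to 6.75 FPKM, and the agouti gene *a*, a pigment signal, at 3.31 to 5.24 FPKM, both with PSM next. The hedgehog list (17 genes) and the FGF list (17 genes) held no limb-enriched gene. Among their members, *Shh* was at means of 1.18 FPKM in forelimb and 4.70 FPKM in hindlimb but 13.1 FPKM in midbrain, and *Fgf10* was at 9.97 and 8.77 FPKM in limb buds and 6.46 FPKM in lung. Median margins of the hedgehog, FGF, BMP and WNT lists were -0.78, -0.58, -0.72 and -1.10.

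*Cyp26b1*, the enzyme that breaks down retinoic acid in the distal bud (ENSMUSG00000063415.12, chr6:84571414-84593908), had the second largest margin, 3.40. It was at 90.7 and 82.9 FPKM in forelimb, 75.9 and 86.0 FPKM in hindlimb and 6.28 FPKM in female midbrain. Of the 16 genes of the retinoic acid and proximal limb list it was the 1 that was limb-enriched. *Cyp26a1*, a related enzyme, was at limb means of 4.20 and 1.49 FPKM and 20.9 FPKM in PSM, and *Meis1*, a factor of the proximal limb, at 4.86 and 13.2 FPKM in limb buds and 83.7 FPKM in lung.

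The 4 receptors were *Lpar1*, *Nrp2*, *Mertk* and *Agtr2*. *Lpar1*, a receptor for lysophosphatidic acid, was at 117, 106, 92.2 and 91.2 FPKM in male and female forelimb and male and female hindlimb, with male PSM at 29.7 FPKM. *Nrp2*, a receptor for semaphorins and vascular growth factors, was at 72.6 to 108 FPKM, and male PSM at 34.9 FPKM set its small margin of 1.04. *Mertk*, a receptor tyrosine kinase for the uptake of dying cells, was at 13.6 to 17.9 FPKM in limb columns and 3.39 FPKM in male liver. *Agtr2*, the type 2 angiotensin receptor, was at 2.87 and 4.57 FPKM in forelimb and 6.82 and 5.79 FPKM in hindlimb, and at most 0.414 FPKM elsewhere.

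Genes of matrix, cell junctions and keratin filaments came next. *Krt5*, the keratin of basal epidermis, was at 51.5 and 48.9 FPKM in forelimb, 42.1 and 41.9 FPKM in hindlimb and 16.3 FPKM in male PSM, where other tissues did not exceed a mean of 1.21 FPKM. It was the 1 limb-enriched gene of 32 in the ridge and ectoderm list. *Trp63*, the master factor of epidermis, was at means of 13.8, 10.7 and 9.73 FPKM in forelimb, hindlimb and PSM, and *Fgf8*, the ridge signal, at 16.2, 25.7 and 9.003 FPKM. *Col9a1*, a cartilage collagen, was at 72.3 and 69.4 FPKM in forelimb, 39.3 and 43.6 FPKM in hindlimb and 14.4 FPKM in female heart, and it was the 1 limb-enriched gene of 22 measured in the cartilage list. *Gjb2* and *Gja3*, both connexins, were at 12.1 to 19.6 FPKM and 5.57 to 8.94 FPKM. *Clmp*, an adhesion molecule, was at 36.0 to 43.6 FPKM, with midbrain next at 16.2 FPKM.

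The remaining genes included *Sertad4* (43.3 to 58.0 FPKM), *Galnt5*, an enzyme of mucin-type glycosylation (4.66 to 5.45 FPKM), *Tmem30b* (5.52 to 6.25 FPKM), *Tmem119* (71.0 to 78.0 FPKM), *Cped1* (39.4 to 50.3 FPKM), *Pmaip1*, which promotes cell death (32.6 to 61.8 FPKM), *Rassf9* (4.53 to 5.30 FPKM), *Dusp7*, a phosphatase of ERK kinases (40.0 to 55.8 FPKM), *Gas2* (28.7 to 34.5 FPKM), *Amot*, an angiomotin (59.1 to 69.2 FPKM) and the noncoding *Gm13111* (8.83 to 10.6 FPKM) and *Dnm3os* (32.0 to 42.7 FPKM), each as the range over the 4 WT limb columns. *Asb4*, an ankyrin repeat protein, reached 165 and 158 FPKM in forelimb and 238 and 231 FPKM in hindlimb, and male liver was next at 69.2 FPKM. Over the 53 genes the lowest limb value ran from 1.76 to 175 FPKM, with a median of 30.0 FPKM, and the highest other value had a median of 6.42 FPKM. For 9 of the 53, no other WT column exceeded 1 FPKM.

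The tissue with the highest other value was PSM for 13 of the 53 genes, lung for 12, forebrain for 10, midbrain for 7, liver for 6 and heart for 5. Among the 909 genes with every limb column highest, lung came next most often, for 318 (35.0%), then PSM for 200, forebrain for 158, midbrain for 143, and heart and liver for 45 each. Both WT columns were above 1 FPKM for 32 of the 53 genes in forebrain (60.4%), 31 in PSM, 26 in midbrain, 25 in heart, 22 in lung and 20 in liver (37.7%). Of all 28712 genes, 12425 to 13318 were above 1 FPKM in a single WT column. The share of all genes above 1 FPKM in both columns of a tissue was not counted.

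Marker lists of other tissues were read in the limb columns. The 10 PSM genes summed to 16.6 to 28.3 FPKM in limb columns and 759 to 859 FPKM in PSM, and 6 of the 10 were below 1 FPKM in every limb column. For 10 neuronal genes the limb sums were 21.4 to 25.9 FPKM, against 643 to 1191 FPKM in the brain columns. The 6 hepatocyte genes summed to 1.52 to 1.96 FPKM and the 6 lung epithelium genes to 1.30 to 4.92 FPKM in limb columns. The 12 red blood cell genes, which come with circulating blood, summed to 6463 to 7805 FPKM in limb columns, which overlapped the 7449 to 10188 FPKM of the brain columns at 1 end and lay below the 13037 to 53014 FPKM of lung, liver, PSM and heart. None of these lists held a limb-enriched gene, nor did the lists of neural crest (8 genes), macrophages (8 genes) and neural progenitors (9 genes), whereas 1 of 8 somite genes, *Meox2*, was limb-enriched.

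Genes just inside the limit were *Cdh15* (margin 1.09), *Nrp2* (1.04) and *Krt17* (1.02), and those just outside were *Myod1* (0.99), *Evx2* (0.98) and *Tmem26* (0.97). The boundary therefore cut through the muscle genes, since *Cdh15* and *Myog* passed and *Myod1* did not. In the opposite direction, 6 genes (0.0209% of all) had every WT limb value at least 2-fold below every other value. *Tagln*, a smooth muscle actin-binding protein, was at 2.84 to 3.30 FPKM in limb columns and 12.8 FPKM in the lowest other column, and its heart mean was 313 FPKM. *Atp1b1*, a sodium pump subunit, was at 1.11 to 1.77 FPKM in limb columns and at least 7.35 FPKM elsewhere. *H2-K1*, a major histocompatibility gene, was at 0.944 to 1.28 FPKM and at least 4.54 FPKM elsewhere. *Crb2*, a polarity protein of neural epithelium, was at 0.609 to 0.788 FPKM and *Meis3*, a TALE homeodomain factor, at 1.03 to 1.64 FPKM. *Zeb2*, a zinc finger repressor, was at 6.08 and 6.89 FPKM in forelimb and 2.01 and 2.45 FPKM in hindlimb, with 16.2 FPKM in male heart as the lowest other value. In ∆*Firre* columns 7 genes met this lower limit, 5 of the 6 among them. *Meis3* did not, with a log2 distance of 0.55 in ∆*Firre* columns and 1.14 in WT columns.

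The ∆*Firre* columns gave the same measurement in other embryos. By the same rule 55 genes (0.192% of all) passed in the 16 ∆*Firre* columns, and 48 of the 53 WT genes were among them, which is 90.6% of the WT set and 87.3% of the ∆*Firre* set. All 53 still had every ∆*Firre* limb column above every other ∆*Firre* column. The share of all genes with this pattern was not counted in ∆*Firre* columns, and in WT columns it was 3.17%. The median margin of the 53 was 1.41 in WT and 1.43 in ∆*Firre* columns. *Osr2* (3.73), *Tbx15* (3.52), *Cyp26b1* (3.34), *Grem1* (3.18) and *Prrx1* (2.90) had the largest margins among the 53 in ∆*Firre* columns too. The 5 genes that passed in WT columns only were *Kera* (1.69 in WT and 0.51 in ∆*Firre*), *Myog* (1.12 and 0.57), *Krt17* (1.02 and 0.85), *Nrp2* (1.04 and 0.95) and *Cdh15* (1.09 and 0.96). The 7 that passed in ∆*Firre* columns only had WT margins of 0.72 to 0.95 and included *Gm27202*, *Cxcl14*, *Slc7a11*, *Myf5*, *Cep41* and *Ppfibp2*.

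**Figure D3:**
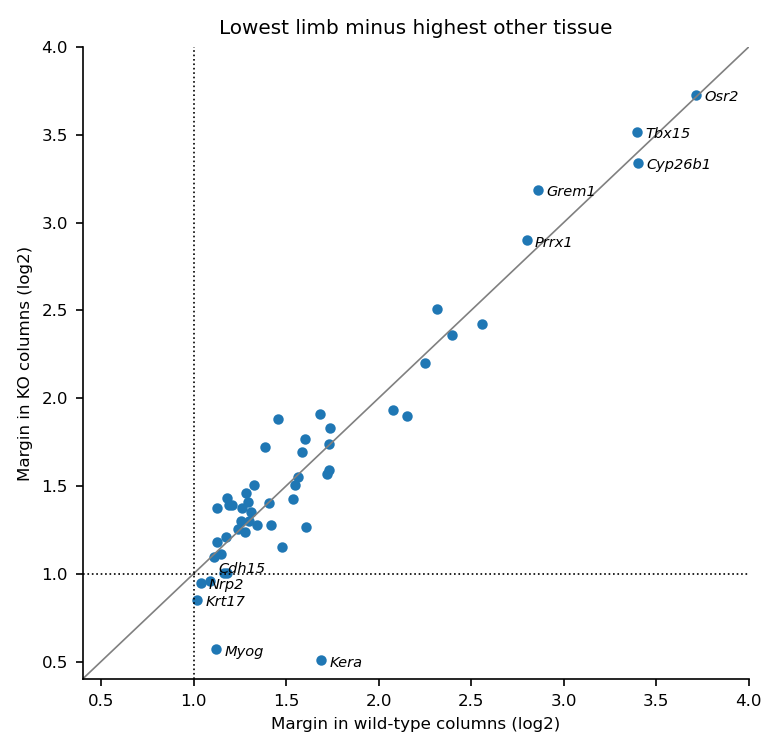
Margin of 52 of the limb-enriched genes in WT columns (x axis) and ∆*Firre* columns labelled KO (y axis), both in log2 units, with the 2-fold limit dotted and the line of equality in grey. All 52 points lie above 0.5 in the KO columns, and *Kera* lies farthest below the line.

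Genotypes were next compared within each limb bud. A gene counted as different if its mean over the 4 columns of that limb bud exceeded 1 FPKM and both sexes showed a change of at least 1.5-fold the same way. Besides *Firre* itself, 5 of 12736 genes (0.0393%) met this in forelimb and 7 of 12474 (0.0561%) in hindlimb. None of the 53 limb-enriched genes met it in forelimb and 1, *Kera*, did in hindlimb. *Kera* encodes keratocan, a small proteoglycan of connective tissue (ENSMUSG00000019932.7, chr10:97606962-97613688). It was at 13.4 and 13.9 FPKM in WT male and female forelimb, 8.62 and 9.40 FPKM in ∆*Firre* forelimb, 2.73 and 3.31 FPKM in WT hindlimb and 0.689 and 1.53 FPKM in ∆*Firre* hindlimb. Each ∆*Firre* value was thus below its WT counterpart. The log2(FPKM + 1) differences were -0.58 and -0.52 in male and female forelimb and -1.14 and -0.77 in hindlimb.

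*Krt17*, a keratin of embryonic and wounded skin, was also lower in all 4 pairs, at 12.01 and 10.1 FPKM in WT forelimb and 6.48 and 6.41 FPKM in ∆*Firre* forelimb, and at 3.63 and 4.19 FPKM in WT hindlimb and 3.12 and 2.33 FPKM in ∆*Firre* hindlimb. In forelimb its differences were -0.80 in males and -0.58 in females, the latter just short of 1.5-fold. Over the 53 genes the median difference between genotypes was between -0.025 and 0.063 in the 4 pairs, and over the 12681 genes above 1 FPKM in WT limb buds between -0.0031 and 0.016. Values for single libraries were not analysed here, so it was not tested here whether the *Kera* difference exceeds the spread between litters or libraries. The paper compared WT and ∆*Firre* samples of each tissue and sex with Cuffdiff, and those results are not reported here.

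Between the sexes, 9 of 12681 genes (0.071%) were apart by at least 1.5-fold, with the same sign, in both WT limb buds, and none of the 53 was among them. The female minus male difference of the 53 genes lay between -0.36 and 0.52 in forelimb and between -0.43 and 0.48 in hindlimb, with a median size of 0.11 over both. *Agtr2*, itself on the X chromosome, gave the largest of these, from 2.87 FPKM in male to 4.57 FPKM in female forelimb, whereas hindlimb went from 6.82 to 5.79 FPKM.

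Hindlimb differed more from forelimb than females did from males. Among the 12681 genes with a mean above 1 FPKM over the WT limb columns, 267 (2.11%) were at least 1.5-fold higher in hindlimb in both sexes and 347 (2.74%) were higher in forelimb. With columns scaled by median of ratios the counts were 304 and 301. Of the 267 and 347 genes called without this scaling, 220 and 272 met the same limit in both ∆*Firre* pairs. Identity genes followed the labels. *Tbx5*, the forelimb T-box factor, had means of 56.2 FPKM in forelimb and 0.153 FPKM in hindlimb. *Tbx4* had means of 5.62 and 55.9 FPKM and *Pitx1*, the hindlimb homeodomain factor, 0.218 and 76.5 FPKM. *Hoxc10* and *Hoxc11*, both posterior HoxC genes, were at 1.79 and 32.0 FPKM and at 0.865 and 13.0 FPKM. Of the 10 genes in the identity list, 8 were higher in hindlimb and 2 in forelimb, and none was limb-enriched, since the list names genes that differ between the limb buds. Besides *Pitx1*, *Tbx4*, *Hoxc10* and *Hoxc11*, the 5 largest hindlimb differences included *Hba-a1*, a globin whose reads are shared with *Hba-a2*, at 55.5 and 413 FPKM. After *Tbx5*, the 4 next forelimb differences were *Gm8186*, *Gm5611*, *Gm43050* and *Gm10250*, and 80 of the 347 genes higher in forelimb (23.1%) bore such names, against 27 of the 267 higher in hindlimb (10.1%) and 4.57% of all genes compared. *Gm43050* was also at means of 26.9 FPKM in lung and 7.33 FPKM in heart, where *Tbx5* was at 49.4 and 20.7 FPKM. *Gm8186*, *Gm5611* and *Gm10250* did not exceed a mean of 0.808 FPKM outside the limb buds. Of the 347, 322 had a type in the older GENCODE annotation, and 7 of these (2.17%) were pseudogenes, beside 0.0986% of all typed genes compared.

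**Figure D4:**
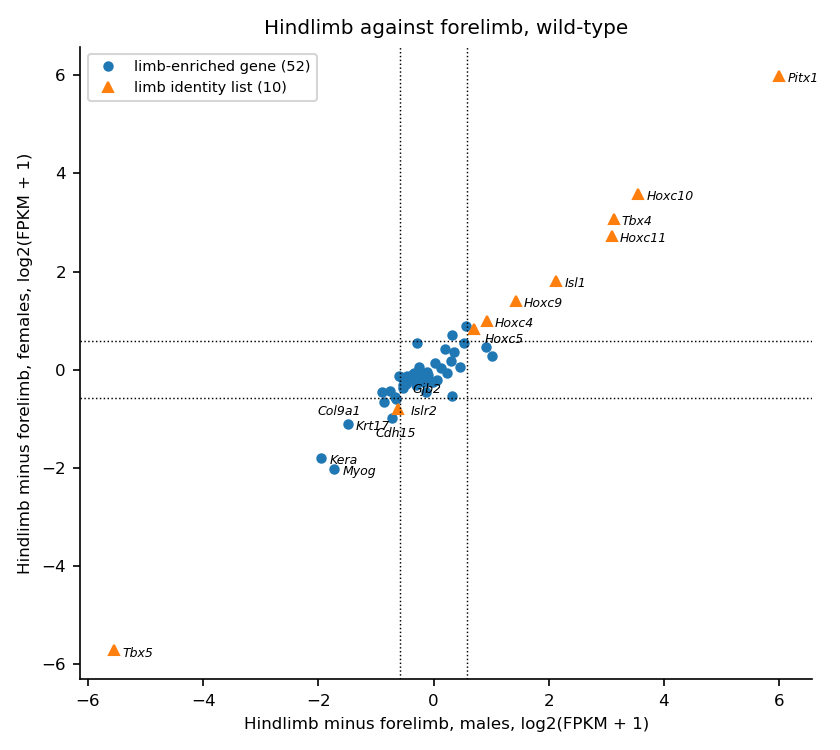
Hindlimb minus forelimb difference in log2(FPKM + 1) in WT males (x axis) and females (y axis) for 52 of the limb-enriched genes (circles) and the 10 identity genes (triangles), with the 1.5-fold limits dotted. Most limb-enriched genes lie near 0, *Kera* and *Myog* lie near -1.9 in both sexes, and *Pitx1* and *Tbx5* mark the extremes.

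Of the 53 limb-enriched genes, 7 met the 1.5-fold limit. In hindlimb 1 gene was higher (1.89%, beside 2.11% of all genes compared) and in forelimb 6 were (11.3%, beside 2.74%). Forelimb was higher for *Kera*, *Myog*, *Krt17*, *Cdh15*, *Col9a1* and *Gjb2*. *Myog*, the muscle differentiation factor (ENSMUSG00000026459.5, chr1:134290004-134292548), was at 21.3 and 22.4 FPKM in male and female forelimb and 5.76 and 4.79 FPKM in hindlimb, a difference of -1.72 and -2.02. ∆*Firre* columns gave -2.15 and -1.57. *Cdh15*, the cadherin of myoblasts, was at 5.202 and 5.56 FPKM in forelimb and 2.77 and 2.31 FPKM in hindlimb. *Kera*, *Krt17*, *Cdh15*, *Col9a1* and *Myog* met the limit in both ∆*Firre* pairs, whereas *Gjb2* did not, with differences of -0.17 and -0.34.

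Other muscle genes were higher in forelimb as well. *Myod1*, just outside the limb-enriched set, had means of 8.41 FPKM in forelimb and 2.85 FPKM in hindlimb, and *Myh3*, the embryonic myosin, 11.1 and 0.742 FPKM. The 8 skeletal and cardiac muscle genes summed to 22.1 to 27.2 FPKM in forelimb and 2.49 to 3.06 FPKM in hindlimb, and 4 of the 8 (*Myh3*, *Tnnt2*, *Actn2* and *Acta1*) met the limit in forelimb. Of 17 genes in the limb muscle precursor list, 3 met the limit in forelimb, *Myod1* and *Myog* among them, and 1 (*Tcf15*) in hindlimb. *Lbx1*, the limb-enriched factor of migrating precursors, was at 2.04 and 2.03 FPKM in forelimb and 2.59 and 1.91 FPKM in hindlimb, and *Pax3* had means of 1.16 and 2.46 FPKM. Of 18 genes in the connective tissue and tendon list, 7 were higher in forelimb and none in hindlimb, beside 2.74% and 2.11% of all genes compared. *Tnc* (means of 7.52 and 1.38 FPKM) and *Postn* (5.18 and 1.62 FPKM) were among the 7. Of its 3 limb-enriched members, *Kera* met the limit and *Osr2* and *Scx* did not.

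By direction alone, 36 of the 53 were lower in hindlimb in both sexes and 12 were higher, beside 6299 (49.7%) and 4237 (33.4%) of the 12681 genes. The median difference of the 53 was -0.27 in males and -0.17 in females, against -0.06 and -0.03 for all genes compared. In all 4 pairs, ∆*Firre* included, 31 of the 53 were lower in hindlimb and 9 were higher, among them *Grem1*, *Sertad4*, *Hoxa11*, *Gsc*, *Agtr2*, *Tmem119*, *Pmaip1* and *Asb4*.

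**Figure D5:**
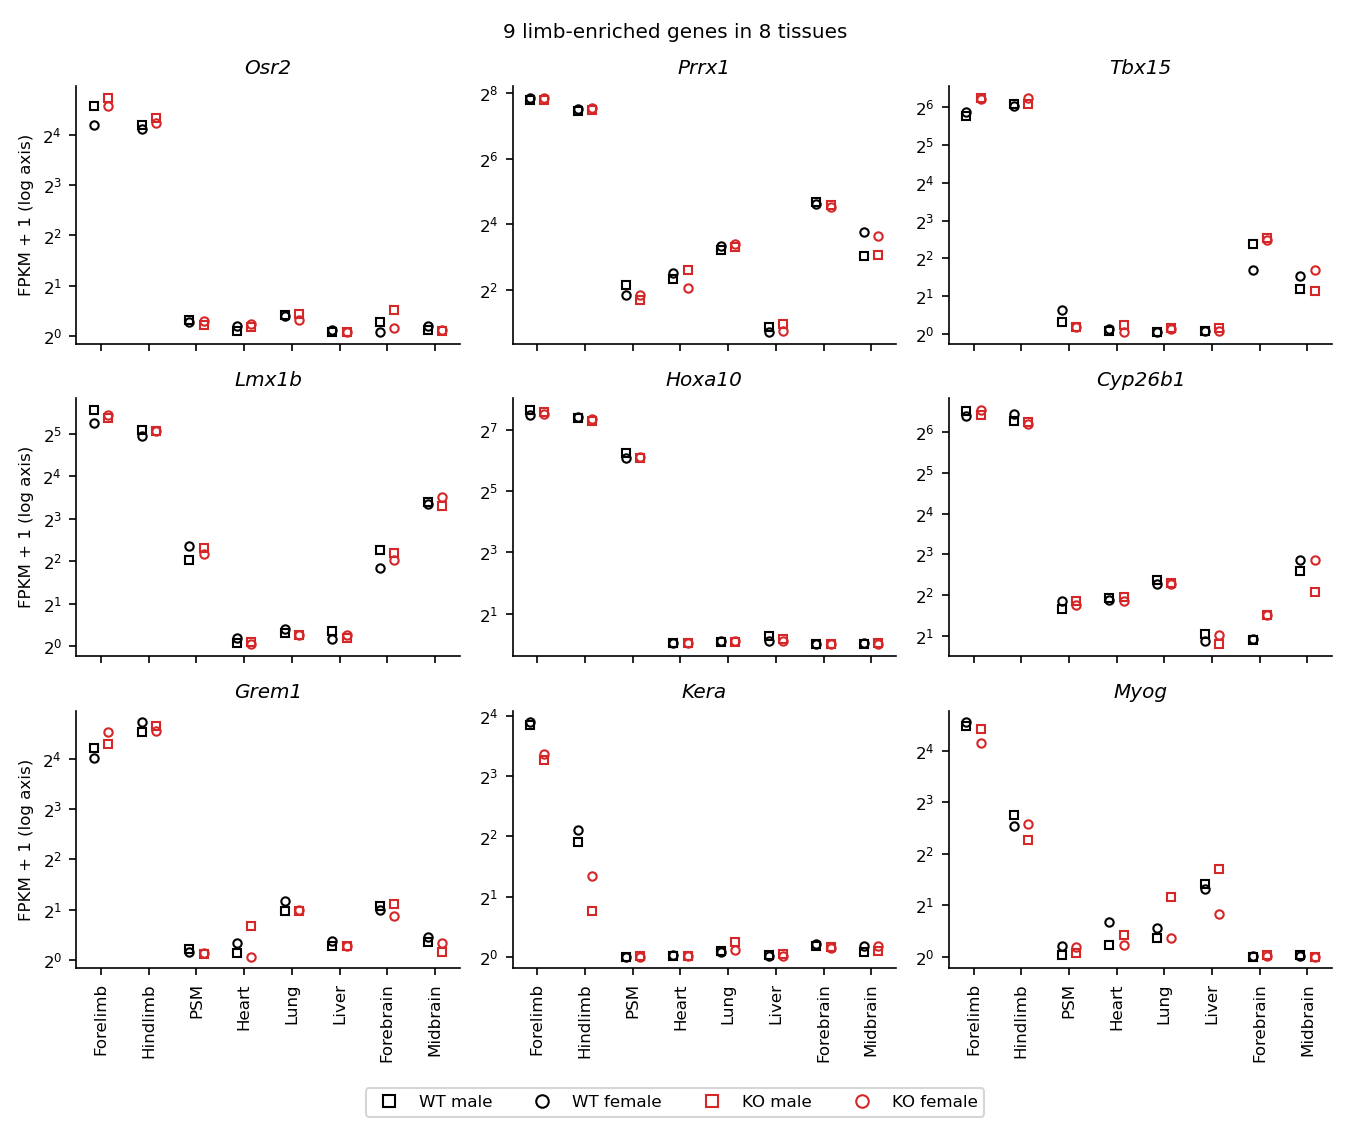
FPKM + 1 on a log axis for 9 limb-enriched genes in 8 tissues, with WT in black, ∆*Firre* (KO) in red, squares for males and circles for females, each symbol being 1 column. *Osr2*, *Prrx1*, *Tbx15*, *Cyp26b1* and *Grem1* stand high in both limb buds in both genotypes, *Lmx1b* has its second level in midbrain, *Hoxa10* in PSM, and *Kera* and *Myog* are higher in forelimb than in hindlimb.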

How the data were processed

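Poly(A)+ RNA of 8 tissues was sequenced by the authors from TruSeq libraries (500 ng of total RNA, 200 ng for lung and 80 ng for PSM, 10 PCR cycles), a kit that does not mark strand. Per the submitters' processing notes and the methods, reads were mapped to mm10 with TopHat2 2.1.1 and Bowtie2 2.2.8 and quantified over GENCODE vM9 with Cuffdiff 2.2.1. The deposited values are FPKM, 1 for each of 32 groups of 3 libraries. A further 16 columns, each over both sexes, were left out. Read depth is not known from FPKM and was not analysed here.

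From these values, log2(FPKM + 1) was compared in Python 3.11.15 with pandas 2.3.3 and numpy 2.4.6. The pseudocount of 1 understates the change of low genes. No statistical test was possible on 1 value per group, so calls are folds. Positions, promoters and microRNAs are from RefSeq (GRCm38.p6). Alternatives were other pseudocounts, folds, filters, scalings, tissues, sexes and genotypes. The limb-enriched genes and the 27 gene lists were chosen with earlier results of these data known. Of the listed genes, 2 were not matched. Genes were named by a rule: the 4 markers, the 20 largest margins, limb-enriched genes of a list, the 3 genes on either side of the limit, the 5 largest differences each way between limb buds, the identity list, the 5 lowest limb-low genes, limb-enriched genes that differed between genotypes, and HoxA and HoxD genes. Other named genes were chosen after their values were seen. Values of 3 genes are not reported here.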

Additional observations from a re-analysis of the deposited data

Results flagged for a closer look

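For 4 of the 53 limb-enriched genes, the difference between genotypes went one way in both sexes of forelimb and the other way in both sexes of hindlimb. The same pattern of signs was seen for 1018 of 12681 genes (8.03%), against 7.55% of the limb-enriched genes. These differences of direction were not tested. *Scx* was lower in ∆*Firre* forelimb (-0.20 in males and -0.046 in females, log2 scale) and higher in ∆*Firre* hindlimb (0.20 and 0.13). *Wfikkn2* was higher in ∆*Firre* forelimb (0.069 and 0.28) and lower in hindlimb (-0.24 and -0.28). *Cped1* gave 0.11 and 0.19 in forelimb and -0.025 and -0.20 in hindlimb, and *Rassf9* gave 0.0045 and 0.15 in forelimb and -0.041 and -0.051 in hindlimb. Every one of these 16 values was under 1.5-fold.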

How the results depend on the processing

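No paired analysis was possible because each column is 1 value over 3 libraries and carries no replicate number, and for the same reason no fit without single replicates or with a replicate block was run. Of the 53 limb-enriched genes, 45 passed under all 17 alternatives other than the 4-fold margin, and the others were lost in ∆*Firre* columns (5), on scaling by median of ratios (*Nrp2*, *Krt17* and *Asb4*) or with a mean above 1 FPKM over the 16 WT columns required (*Lbx1* and *Rspo4*). Only these settings could lose a gene. A lower fold, a lower or no pseudocount, a tissue left out, 1 limb bud or sex alone and tissue means keep all 53 by construction. Passing under those settings is therefore no sign of stability. No margin changed sign under any alternative. The count of limb-enriched genes was 98 with a pseudocount of 0.1, 11 at 4-fold, 116 at 1.5-fold, 112 without PSM, 82 without lung, 170 with forelimb columns only and 146 on tissue means, and it was between 51 and 76 otherwise. Limb-low genes numbered 28 with a pseudocount of 0.1, 0 at 4-fold and 28 at 1.5-fold.

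With a pseudocount of 0.1, 521 genes were higher in forelimb and 1 limb-enriched gene differed between genotypes in forelimb, which was 0 as reported. At 2-fold, 62 genes were higher in hindlimb and 128 in forelimb, with 0 and 3 of the limb-enriched genes, and 0 of these differed between genotypes in hindlimb. Scaling by median of ratios, with factors of 0.866 to 1.06, put 2 limb-enriched genes in hindlimb. Male columns alone gave 636 genes higher in forelimb and 3 and 10 limb-enriched genes higher in hindlimb and forelimb, and female columns alone gave 3 in hindlimb. After the data were seen, genes named Gm, -ps or -rs were left out, and 240 genes in hindlimb and 267 in forelimb remained. The main limit is that replicate spread is unknown. Tissues are dissected pieces, and the part of neighbouring tissue or of embryo stage in any difference was not tested.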
